A study of Mus musculus with 12 samples.

Results

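The mevalonate pathway from HMG-CoA synthase to lanosterol synthase was followed through 9 enzyme genes, Hmgcs1, Mvk, Pmvk, Mvd, Idi1, Fdps, Fdft1, Sqle and Lss, among the 12393 genes measured. The members were selected by pathway position, with the estradiol values of these same arrays already known, so those values are given below as a description. Every probe set paired with exactly 1 of these symbols was used, which gave 21 of 20380 single-symbol probe sets. Hmgcs1 and Fdft1 had 4 each, Lss 3, Mvk, Mvd, Idi1 and Fdps 2 each, and Pmvk and Sqle 1 each. The 12 mouse samples formed 4 groups of 3 arrays. RAW264.7, a mouse macrophage-like cell line, was labelled Unstimulated or Estradiol, the latter at 1 ug/mL overnight. Macrophages from bronchoalveolar lavage (BAL), the cells washed out of the airways and alveoli, came from mice labelled Control or Pregnant. The series' design text calls the untreated cultures vehicle-treated, whereas their label says unstimulated, and the estradiol treatment text stands on every sample, lavage included. Strain, age, stage of pregnancy and sorting of the lavage cells are not given in the sources used here. Nothing in the labels says whether replicates were separate cultures or animals, so p-values reflect the scatter of these arrays alone, and it may be technical.

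The pathway builds sterols and isoprenoids from acetyl-CoA. Hmgcs1 makes HMG-CoA, from which mevalonate is formed. Mvk, Pmvk and Mvd phosphorylate and decarboxylate mevalonate to isopentenyl diphosphate, and Idi1 and Fdps assemble that unit into farnesyl diphosphate. From there branches lead to prenylated proteins, dolichol and ubiquinone, while Fdft1, Sqle and Lss lead through squalene to lanosterol, the parent sterol of cholesterol. Transcription of these enzymes is driven by SREBP2, a membrane-held transcription factor released when sterols are scarce, which acts with the CCAAT-binding factor NF-Y. In macrophages the pathway stands opposite cholesterol loading from ingested lipoproteins and cells, and efflux through LXR target genes.

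RefSeq promoter windows (build GRCm38.p6, 250 bases before to 50 after a gene start) were found for 6 of the 9 genes, Hmgcs1, Mvk, Pmvk, Mvd, Idi1 and Lss, in 7 windows. They were searched on both strands for a sterol regulatory element spelled TCACNCCAC, the NF-Y box CCAAT and the E-box CACGTG. The NF-Y box was found in 6 of 7 windows and in each of the 6 genes, against 37.4% of all 32851 windows of the same length. The sterol element was found in Hmgcs1 alone, against 1.24% of all windows, and the E-box in 0 of 7, against 7.15%. The second Pmvk window held none of the 3. The letters can also match where no factor binds, and the search says nothing of copies outside these windows. The 250 bases upstream of the start are shown for the gene with both motifs (Hmgcs1), for Mvk and Mvd, which carry several boxes, and for Lss and Idi1, whose estradiol changes lay far apart. They lie at chr13:119690101-119690350 (plus strand) for Hmgcs1, chr5:114444019-114444268 (plus) for Mvk, chr8:122443423-122443672 (minus) for Mvd, chr13:8885356-8885605 (plus) for Idi1 and chr10:76531355-76531604 (plus) for Lss. Each is written 5′ to 3′ on the gene's strand, and capitals mark the matches, and an NF-Y box on the opposite strand reads ATTGG.
Hmgcs1: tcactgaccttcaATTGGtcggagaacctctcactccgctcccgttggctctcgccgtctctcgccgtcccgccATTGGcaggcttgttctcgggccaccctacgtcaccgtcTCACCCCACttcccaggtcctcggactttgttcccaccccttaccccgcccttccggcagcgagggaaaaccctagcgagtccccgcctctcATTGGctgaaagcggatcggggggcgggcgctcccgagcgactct
Mvk: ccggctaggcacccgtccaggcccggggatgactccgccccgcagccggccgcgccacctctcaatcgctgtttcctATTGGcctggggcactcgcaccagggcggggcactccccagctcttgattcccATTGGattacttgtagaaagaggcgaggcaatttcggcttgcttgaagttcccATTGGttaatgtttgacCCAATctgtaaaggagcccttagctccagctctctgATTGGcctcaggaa
Mvd: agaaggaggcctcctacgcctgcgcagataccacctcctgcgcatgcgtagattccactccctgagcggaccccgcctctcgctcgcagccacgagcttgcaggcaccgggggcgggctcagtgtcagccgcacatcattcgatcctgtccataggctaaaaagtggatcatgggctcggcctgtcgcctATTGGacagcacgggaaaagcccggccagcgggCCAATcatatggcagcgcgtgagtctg
Idi1: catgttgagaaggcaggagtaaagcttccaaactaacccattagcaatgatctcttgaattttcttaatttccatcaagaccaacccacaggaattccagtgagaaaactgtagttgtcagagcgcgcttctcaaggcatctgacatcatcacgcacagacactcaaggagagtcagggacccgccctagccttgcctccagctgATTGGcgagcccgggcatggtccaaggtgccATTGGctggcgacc
Lss: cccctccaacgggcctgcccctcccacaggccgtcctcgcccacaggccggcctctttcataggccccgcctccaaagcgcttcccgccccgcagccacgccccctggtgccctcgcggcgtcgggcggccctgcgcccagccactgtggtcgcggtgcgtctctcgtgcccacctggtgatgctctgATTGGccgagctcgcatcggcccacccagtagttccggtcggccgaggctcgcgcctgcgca

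In Hmgcs1 the sterol element began 137 bases before the start, between boxes that began 176 and 45 bases before it. The 4 opposite-strand boxes of Mvk began 173, 120, 67 and 14 bases before the start and so recurred at a spacing of 53 bases. Mvd had boxes at 60 and 27 bases, Idi1 at 45 and 14, and Lss a single box at 62.

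Array medians ranged from 369 to 393 in linear intensity, and arrays of a group correlated at 0.995 to 0.999 (Pearson, log2 values). Values below are log2(intensity + 1) per probe set, and a change is a difference of such values. A probe set is termed dim if, in a comparison of 6 arrays, under 3 of them showed it above the 40th percentile of all values on that array. For cell type markers the 40th percentile was taken over the single-symbol probe sets of an array. The lavage samples carried the alveolar macrophage markers. Of 8 measured, 8 were above that percentile on every lavage array and 7 were at or below it on every RAW264.7 array. Of 9 epithelial markers, 6 were also above it on every lavage array, with a summed intensity of 14034 to 23767 in control and 15986 to 27476 in pregnant samples, against 373 to 450 in RAW264.7 cells. Of 8 T cell markers 2, Cd2 and Il7r, were above it on every lavage array, and Il7r was above it on every RAW264.7 array too. Cd3d, Cd3e and Cd3g were above it on some lavage arrays only, and at or below it on every RAW264.7 array. In pregnancy these 3 changed by -0.82 ± 0.40, -1.08 ± 0.45 and -1.37 ± 0.73 (log2, SE), without a call. Of the 8 T cell markers 5 were lower and 3 higher there. Cd4, Cd8a and Cd5 were at or below the 40th percentile on every lavage array, and 5 of 5 B cell markers on all arrays. Of 6 neutrophil markers 2, S100a8 and S100a9, were above it on every lavage array. The others, Ngp, Camp, Cxcr2 and Elane, were at or below it on every lavage array. The 6 summed to 4645 to 17409 in control and 4696 to 8587 in pregnant samples. In RAW264.7 cells they summed to 238 to 275 unstimulated and 451 to 497 with estradiol. In bulk RNA, fewer cells of a type and less RNA per cell cannot be told apart.

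With estradiol, each of the 9 enzymes was lower in RAW264.7 cells, from 1.18-fold for Hmgcs1 to 2.16-fold for Pmvk. A gene is represented by its probe set with the highest mean over all arrays. In these probe sets the fall was deepest at the mevalonate kinase steps and at lanosterol synthase and shallowest at Hmgcs1, Idi1, Fdps and Sqle. Differences between genes were not tested, and probe sets of 1 gene also differed, from -0.24 to -0.82 for Hmgcs1. By limma (adjusted p under 0.05 over all probe sets) 9 of 9 genes fell and 0 rose, against 4.09% of all genes lower and 5.92% higher. The median log2 change was -0.79, against 0.02 over all genes, and -0.49 when all probe sets of a gene, dim ones included, were averaged. Of the 21 probe sets 17 fell and 0 rose, against 4.24% of all probe sets lower, and in 18 the groups did not overlap, estradiol being lower, against 15.6%. Since the enzymes were put forward with this contrast known, nothing is read from those counts. Leaving out 1 array at a time, the calls were 7 genes and 12, 12 and 13 probe sets without unstimulated replicate 1, 2 and 3. They were 8, 9 and 8 genes and 16, 18 and 14 probe sets without estradiol replicate 1, 2 and 3, and the genes lost were Hmgcs1 and Idi1. The share of all genes called in these smaller fits is not given here, so nothing is read from their counts either.

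**Figure D1:**
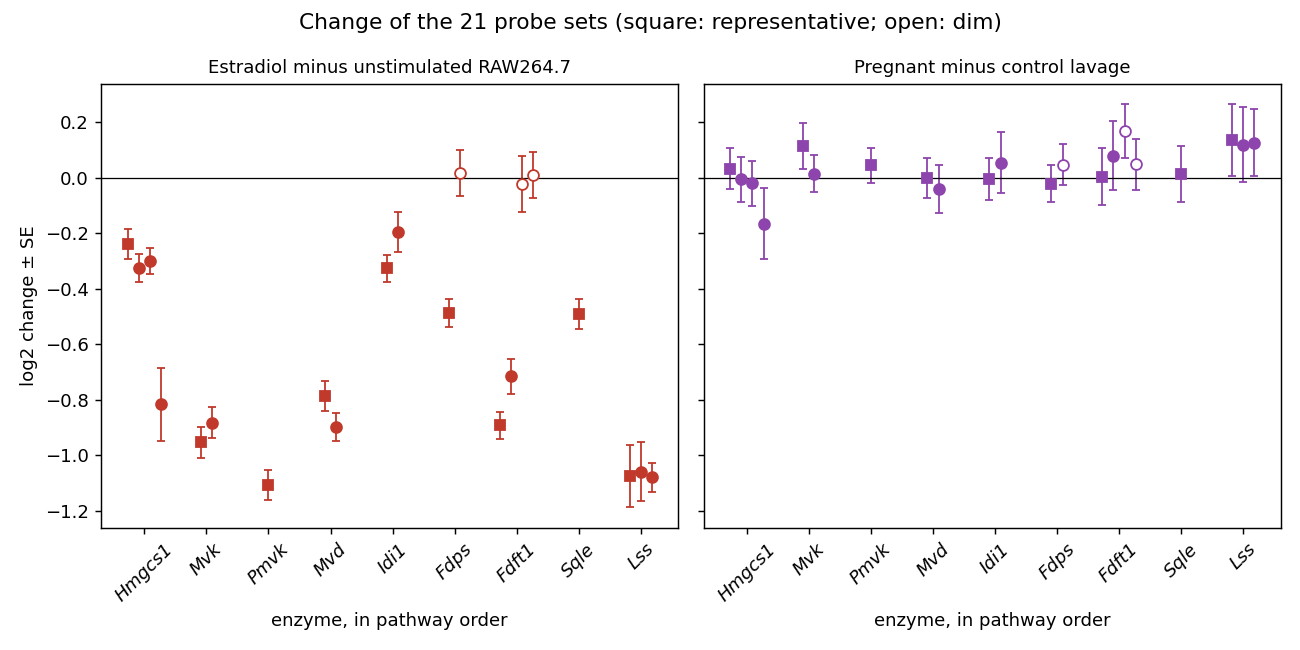
Log2 change (vertical axis, ± SE) of every probe set of the 9 enzymes in pathway order, for estradiol minus unstimulated RAW264.7 cells (left) and pregnant minus control lavage (right). Squares are the representative probe sets and open symbols dim ones; with estradiol the representatives run from -0.24 to -1.11, while in pregnancy they run from -0.02 to 0.14.

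Hmgcs1, the entry enzyme among those measured, had the smallest change in its representative probe set. Unstimulated arrays read 13.67, 13.56 and 13.58 and estradiol arrays 13.31, 13.39 and 13.38. The groups did not overlap, and the difference was -0.24 ± 0.05 (SE, n = 3 against 3). The call was lost with arrays shifted to a common median and without any array except estradiol replicate 2. The companion probe sets 1433444_at and 1433445_x_at gave -0.33 ± 0.05 and -0.30 ± 0.05. The 4th, 1433446_at, read 13.12, 13.17 and 13.17 without estradiol and 12.52, 12.02 and 12.47 with it, a change of -0.82 ± 0.13. That probe set's spread with estradiol came from replicate 2, its lowest array.

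The 3 enzymes that turn mevalonate into isopentenyl diphosphate all fell, by 0.79 to 1.11 on the log2 scale in their representative probe sets. Mvk, the mevalonate kinase, read 10.90, 10.87 and 10.82 in unstimulated and 9.83, 9.96 and 9.93 in estradiol cells, a change of -0.95 ± 0.06. Its other probe set gave -0.88 ± 0.06, with the estradiol arrays at 9.18, 9.17 and 9.17. All estradiol arrays lay below all unstimulated ones on both.

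Pmvk, the phosphomevalonate kinase, changed about as much as Lss. Its single probe set read 12.05, 12.14 and 12.04 without and 10.95, 11.00 and 10.95 with estradiol, a change of -1.11 ± 0.05. The gap between the groups was many times the spread within either. Without estradiol replicate 2 the change was -1.13 for Pmvk and -1.21 for the Lss representative, so the order of these enzymes turns on that array. Mvd, the diphosphomevalonate decarboxylase, read 12.37, 12.38 and 12.35 against 11.51, 11.61 and 11.62, a change of -0.79 ± 0.05. That Mvd probe set, 1448663_s_at, has the suffix that marks probes able to match further transcripts, and the other one, without the suffix, gave -0.90 ± 0.05.

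The isoprenoid steps changed less. Idi1, which isomerises isopentenyl diphosphate, read 13.26, 13.25 and 13.26 in unstimulated and 12.90, 12.97 and 12.92 in estradiol cells, a change of -0.33 ± 0.05, and the call was lost without any 1 of the unstimulated arrays. Its second probe set read 12.55, 12.64 and 12.64 against 12.37, 12.55 and 12.33 and did not pass (-0.19 ± 0.07), since the highest estradiol array all but reached the lowest unstimulated one. Fdps, the farnesyl diphosphate synthase at the branch point to prenyl products, read 13.52, 13.56 and 13.55 against 13.01, 13.06 and 13.11, a change of -0.49 ± 0.05. The groups of Fdps were apart on every array.

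The sterol-committed steps were mixed in size. Fdft1, the squalene synthase, read 12.77, 12.77 and 12.79 in unstimulated and 11.86, 11.93 and 11.86 in estradiol cells, a change of -0.89 ± 0.05, and a second probe set gave -0.72 ± 0.06. Sqle, the squalene epoxidase that uses oxygen, read 12.77, 12.79 and 12.70 against 12.22, 12.32 and 12.27, a change of -0.49 ± 0.05. The Sqle change was smaller than those of Fdft1 before it and Lss after it, a difference between genes that was not tested.

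Lss, the cyclase that closes the sterol rings, read 12.49, 12.42 and 12.41 without and 11.20, 11.62 and 11.26 with estradiol, a change of -1.08 ± 0.11. This probe set, 1420013_s_at, has the same suffix as the Mvd representative. The remaining Lss probe sets, without it, gave -1.06 ± 0.11 and -1.08 ± 0.05. All 3 were within 0.02 of each other, although estradiol replicate 2 read high on 2 of them and not on the 3rd.

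The 4 probe sets without a call were the second one of Idi1 and 3 dim ones. Fdps 1438150_at read 3.58 to 3.68 in unstimulated and 3.58 to 3.83 in estradiol cells, and Fdft1 1438918_at and 1438919_x_at read 6.63 to 7.08 over the 6 arrays. Their changes were 0.02 ± 0.08, -0.02 ± 0.10 and 0.01 ± 0.08. The other 18 probe sets were above the 40th percentile on all 12 arrays.

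**Figure D2:**
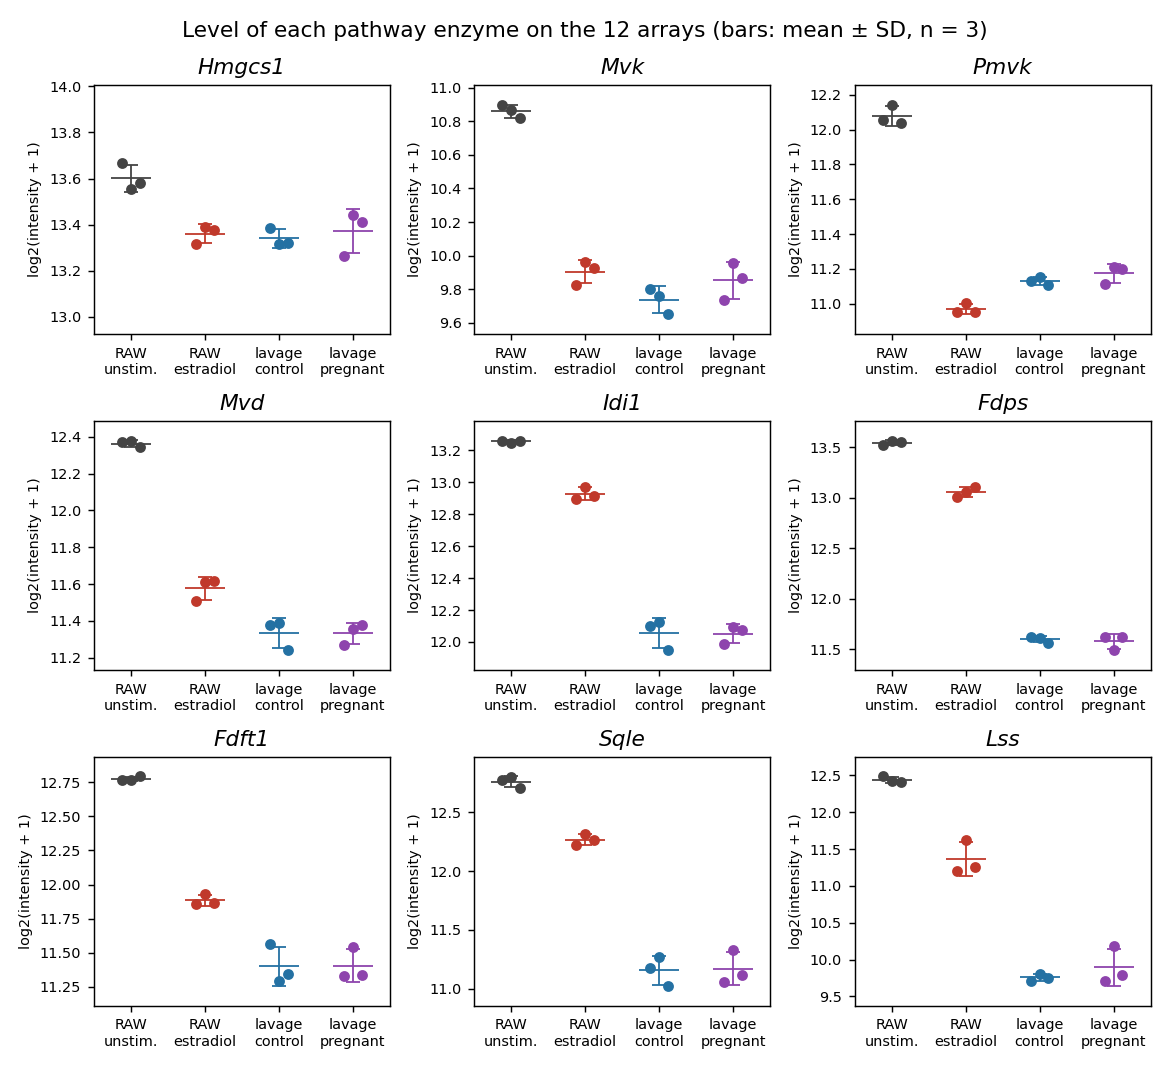
Log2(intensity + 1) of the representative probe set of each enzyme (vertical axis, scaled per gene) on the 12 arrays by group; points are arrays and bars the mean ± SD (n = 3). Unstimulated RAW264.7 arrays are the highest in each panel, and control and pregnant lavage arrays overlap in each.

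In lavage macrophages none of the 9 enzymes was called between pregnant and control mice. Of 21 probe sets limma called 0 in either direction, and 0 had an unadjusted p under 0.05, against 0% of all 20380 probe sets called and 1992 with an unadjusted p under 0.05. The changes of the 9 genes ran from -0.02 ± 0.07 for Fdps to 0.14 ± 0.13 for Lss, with a median of 0.01, against 0.03 over all genes. Their limma adjusted p-values ran from 0.679 to 0.997.

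Pmvk read 11.13, 11.15 and 11.11 in control and 11.11, 11.21 and 11.20 in pregnant samples. The groups overlapped, and the change was 0.04 ± 0.06 (95% confidence interval -0.11 to 0.19). Lss read 9.71, 9.81 and 9.76 against 9.71, 10.18 and 9.79, so 1 pregnant array stood above the other 5 (interval -0.17 to 0.44). Mvk read 9.80, 9.76 and 9.65 against 9.74, 9.96 and 9.87, a change of 0.11 ± 0.08 (interval -0.08 to 0.31).

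Hmgcs1 read 13.39, 13.32 and 13.32 in control and 13.27, 13.44 and 13.41 in pregnant samples. Fdft1 read 11.56, 11.29 and 11.34 against 11.33, 11.54 and 11.33, and Sqle 11.18, 11.27 and 11.02 against 11.06, 11.33 and 11.12. In each the groups overlapped. The lowest bound of the 9 intervals was -0.24, for Fdft1. Fdft1 1438918_at, which is dim, had the largest change of any member probe set in pregnancy, 0.17 ± 0.10. Epithelial markers had a median change of 0.64 in the same comparison with 0 of 9 called, and 0.25 without pregnant replicate 2; their part in the enzymes' values was not tested.

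The difference between the estradiol change and the pregnancy change was fitted over all 12 arrays. It was negative for 9 of 9 genes, with a median of -0.79, and limma called 7 of 9 lower, against 1.76% of all genes. Pmvk (-1.15 ± 0.07), Lss (-1.21 ± 0.18) and Mvk (-1.07 ± 0.10) had the largest differences. Hmgcs1 (-0.27 ± 0.09) and Idi1 (-0.32 ± 0.08) did not pass. This contrast holds the estradiol values by which the enzymes were known, so its counts too are a description.

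Unstimulated RAW264.7 cells carried more of each enzyme's RNA than control lavage cells, most of all at the end of the pathway. The difference was 0.26 ± 0.05 for Hmgcs1 (1.20-fold), 1.12 ± 0.06 for Mvk, 0.95 ± 0.05 for Pmvk, 1.03 ± 0.06 for Mvd and 1.20 ± 0.06 for Idi1. It was 1.95 ± 0.05 for Fdps, 1.38 ± 0.08 for Fdft1, 1.60 ± 0.07 for Sqle and 2.68 ± 0.05 for Lss (6.42-fold). The other Lss probe sets gave 2.65 ± 0.05 and 2.01 ± 0.12 (4.03-fold for 1426913_at). Limma called 9 of 9 genes higher and 0 lower in the cell line, against 33.8% of all genes higher and 27.8% lower. The unstimulated arrays are also those of the estradiol contrast by which the enzymes were known, so nothing is read from this count. Cell line and primary cell, and culture and lavage, cannot be told apart here. The epithelial markers above, present in lavage and dim in the cell line, move with this comparison, and their part in it was not tested.

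With estradiol the representative probe sets of the first 4 enzymes lay within 0.24 of the control lavage mean, and the later ones 0.48 to 1.61 above it. Hmgcs1 in estradiol-treated cells (13.36 ± 0.04, SD, n = 3) overlapped control lavage (13.34 ± 0.04). Pmvk crossed it, at 10.97 ± 0.03 against 11.13 ± 0.02, and was the only representative probe set below control lavage on every array. Mvk stayed 0.17 above, with its lowest estradiol array at 9.83 and the highest control array at 9.80, and it overlapped the pregnant arrays.

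Mvd stayed 0.24 above control lavage, Fdft1 0.48, Idi1 0.87, Sqle 1.11, Fdps 1.46 and Lss 1.61, each without overlap. The order of the groups for those 6 genes was unstimulated, estradiol and then the lavage groups, whose difference was within their spread. For Pmvk the order was unstimulated, pregnant, control and estradiol, and pregnant and control overlapped. For the representative of Hmgcs1 the 3 groups after unstimulated overlapped, as estradiol and control did on 1433446_at, whereas on 1433445_x_at and 1433444_at estradiol lay above control without overlap, by 0.06 and 0.08. With the other probe sets of Lss the remaining difference was 1.59 and 0.93, and with those of Mvk and Mvd 0.28 and 0.27.

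**Figure D3:**
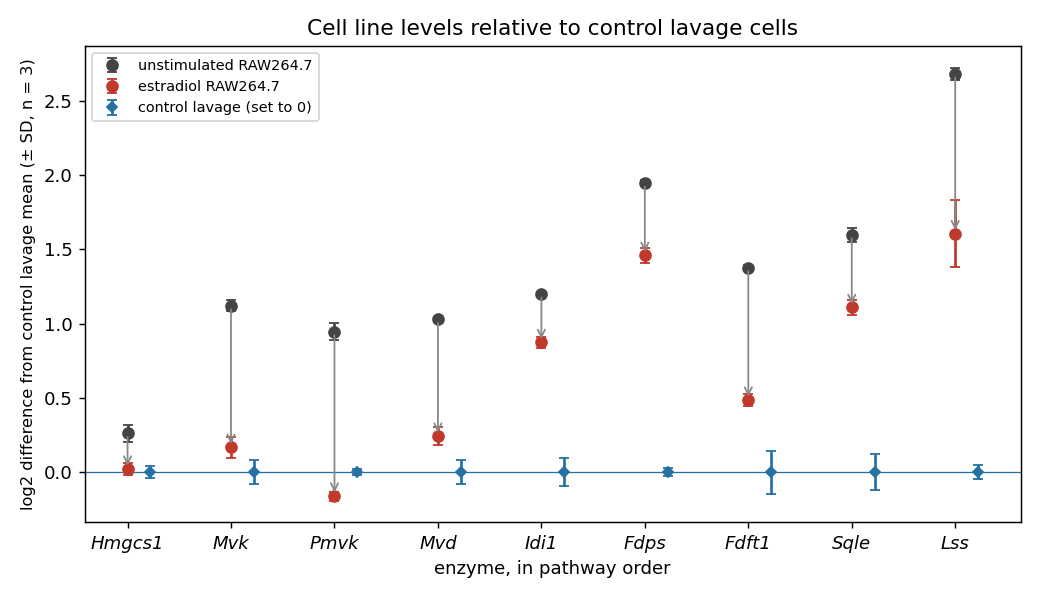
Level of each enzyme's representative probe set in unstimulated and estradiol-treated RAW264.7 cells as a log2 difference from the control lavage mean (vertical axis; bars SD, n = 3), in pathway order, with arrows from unstimulated to estradiol. Hmgcs1, Mvk, Pmvk and Mvd end within 0.24 of the lavage mean, and Lss ends 1.61 above it.

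The genes around the pathway were grouped by role. Their counts with estradiol are given beside the same 4.09% of genes lower and 5.92% higher. These lists too were chosen with earlier results of these data known, so nothing is read from their counts. Of 9 measured enzymes between lanosterol and cholesterol, 7 fell and 0 rose with estradiol, with a median of -0.71. They included the sterol reductase Tm7sf2 (-0.98 ± 0.05), the decarboxylating dehydrogenase Nsdhl (-0.86 ± 0.05) and the lanosterol demethylase Cyp51 (-0.71 ± 0.05). Hsd17b7 was at -0.93 ± 0.24 without a call, and Lbr, a nuclear envelope protein that shares the reductase activity of Tm7sf2, was at 0.02 ± 0.06. The demethylase had 2 further probe sets at -1.09 and -0.83.

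The next genes belong to the branches that leave the pathway at farnesyl diphosphate. Of 10 measured genes for geranylgeranyl and dolichol synthesis and protein prenylation, limma called 0 in either direction, with 2 at an unadjusted p under 0.05, where 3200 of all 12393 genes were, and a median of -0.03. Ggps1, which extends farnesyl to geranylgeranyl diphosphate, was at -0.10 ± 0.05. The CAAX proteases Rce1 (0.14 ± 0.05) and Zmpste24 (0.12 ± 0.05) had the smallest p-values. Without estradiol replicate 2 the count was again 0.

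The genes that control SREBP were not called either, 0 of 5 with 3 at an unadjusted p under 0.05, where 3200 of 12393 genes were. The transcription factor gene Srebf2 was at -0.17 ± 0.05, and its escort Scap at 0.36 ± 0.10. Srebf1, the gene of the fatty acid-directed factor, was at -0.43 ± 0.14. Without estradiol replicate 2, limma called Srebf1 (-0.59 ± 0.05) lower and Scap (0.26 ± 0.06) higher. Of 4 genes of sterol transport and uptake 0 passed, with 1 at an unadjusted p under 0.05, the sterol carrier Stard4 at -0.66 ± 0.16, which was called without estradiol replicate 2 (-0.48 ± 0.08). Npc1, which exports cholesterol from lysosomes, was at -0.13 ± 0.06. Some listed genes of these groups were not analysed here.

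Fatty acid synthesis and desaturation genes are favoured by SREBP1. Of 9 measured, 5 fell and 0 rose, with a median of -0.26, led by the desaturases Scd1 (-0.56 ± 0.05), Fads1 (-0.32 ± 0.05) and Scd2 (-0.26 ± 0.05). Probe sets disagreed in size here as well, with a further one at -1.73 for Scd1 and others at -0.47 and -1.07 for Scd2. Fasn, the fatty acid synthase, was at 0.34 ± 0.12 without a call. Of 5 genes of LXR and its targets 2 fell and 0 rose, Abca1 (-0.71 ± 0.07) and Mylip (-0.48 ± 0.05). Of 2 measured ketone body genes Acat1, a mitochondrial thiolase, fell (-0.27 ± 0.05), and without estradiol replicate 2 Bdh1 did as well (-0.27 ± 0.05). In pregnancy limma called 0 genes of any of these lists, against 0% of all 20380 probe sets. Of the 44 genes 9 were at an unadjusted p under 0.05, where 1113 of 12393 genes were.

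**Figure D4:**
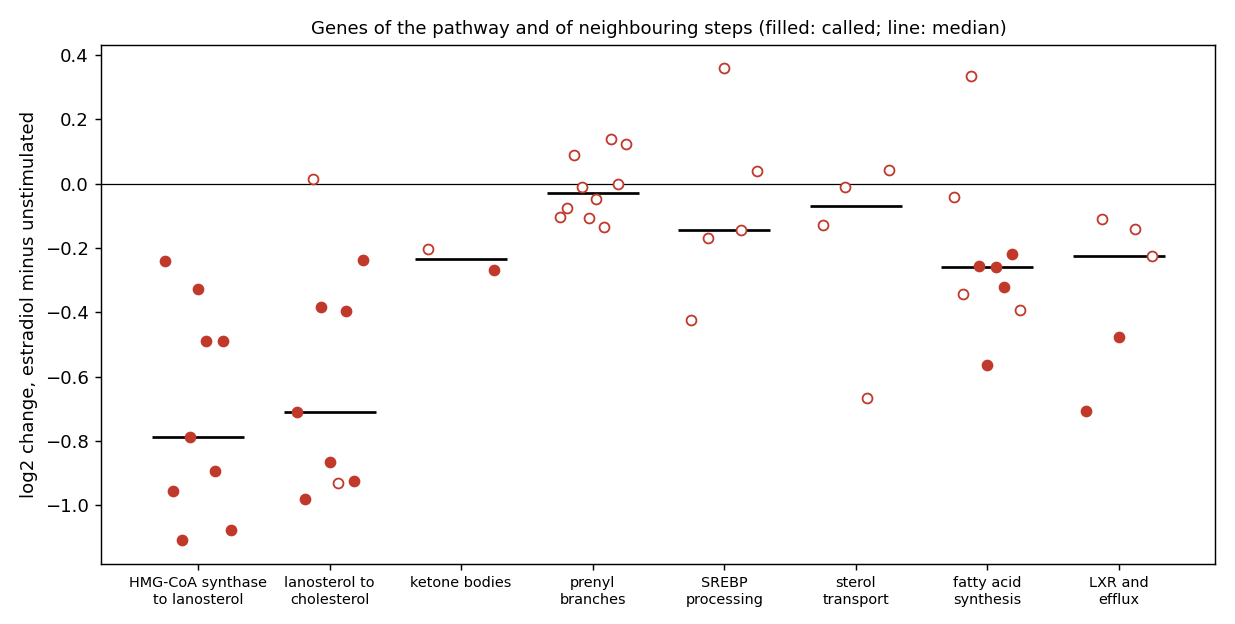
Log2 change with estradiol (vertical axis) of the 9 enzymes and of 7 lists of neighbouring genes; each point is a gene's representative probe set, filled where limma called it, and lines are medians. The 2 sterol synthesis lists have medians of -0.79 and -0.71, and the prenyl branches lie around 0.

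Estradiol replicate 2 stood apart in RNA quality, and so did pregnant replicate 2 less strongly. The signal of the transferrin receptor control at its 3' end exceeded that at its 5' end by 4.31 (log2) on estradiol replicate 2, whereas the remaining RAW264.7 arrays had 3.16 to 3.43. On pregnant replicate 2 it was 3.86, against 2.83 to 3.47 on the other lavage arrays. The actin difference was 0.74 against 0.39 to 0.48, and 0.39 against 0.26 to 0.35.

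Several probe sets of the pathway deviated the same way on both arrays, and others did not. Relative to the other 2 arrays of its group, Lss 1420013_s_at was higher by 0.39 on estradiol replicate 2 and by 0.43 on pregnant replicate 2, and Lss 1420014_at by 0.36 and 0.47. Hmgcs1 1433446_at was lower, by -0.47 and -0.29. Idi1 1423804_a_at was higher by 0.20 and 0.34, and Fdft1 1438322_x_at by 0.15 and 0.42. Fdft1 1438918_at, which is dim, went opposite ways, 0.20 and -0.24. The representative of Fdft1 deviated by 0.07 and 0.21, Sqle by 0.07 and 0.24, and the dim Fdps 1438150_at by 0.25 and 0.14.

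Over the 21 probe sets, which share genes and arrays, the deviations of these 2 arrays correlated at r = 0.69, given as a description of arrays picked after their values were seen. With control replicates 1, 2 and 3 estradiol replicate 2 correlated at -0.53, 0.23 and 0.16. With pregnant replicates 1 and 3 it correlated at -0.63 and -0.44. Deviations of arrays in a group depend on each other. Without estradiol replicate 2 the estradiol change was -0.66 for Hmgcs1 1433446_at in place of -0.82, -1.21 for Lss 1420013_s_at in place of -1.08, and -0.26 for Idi1 1423804_a_at in place of -0.19. Lss 1426913_at, which deviated by 0.01 on that array, kept -1.08. Without pregnant replicate 2 the pregnancy change of Lss was -0.0083 in place of 0.14.

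**Figure D5:**
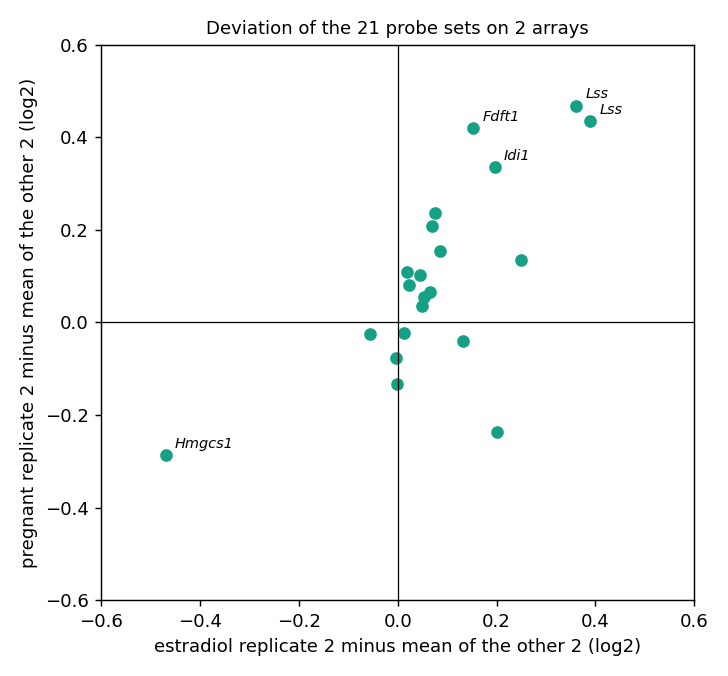
Deviation of each of the 21 member probe sets on estradiol replicate 2 (horizontal axis) and pregnant replicate 2 (vertical axis) from the mean of the other 2 arrays of its group, in log2 units. Both Lss probe sets at the upper right deviate upward and Hmgcs1 1433446_at downward on both arrays.

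Likeness to the mean of the 9 enzymes over the 6 RAW264.7 arrays was taken among 7266 genes. These were above the 40th percentile of the single-symbol probe sets on all 6. The most alike were Htra2 (Pearson r = 0.999), F10 (0.999), H2-Ab1 (0.998), Lgals8 (0.998) and B9d2 (0.998). With 6 arrays in 2 groups a gene that separates the groups cleanly scores high, and 60 of the 7266 genes exceeded 0.99. Their estradiol changes were -0.20 ± 0.05 for Htra2, a mitochondrial protease, and -0.98 ± 0.06 for F10, coagulation factor X. They were -0.95 ± 0.06 for the MHC class II chain H2-Ab1, -0.34 ± 0.05 for the galectin Lgals8 and -0.36 ± 0.05 for B9d2. Over the 6 lavage arrays the same genes correlated with the enzymes at 0.05 to 0.66.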

How the data were processed

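Intensities of 12 Affymetrix arrays were used as the authors deposited them, 1 linear intensity per probe set (6.51 to 28506). Per the submitters' processing notes RMA was used, and the version is not given in the sources used here. RMA output is usually on the log2 scale and these values were not, so log2(intensity + 1) was taken. No detection calls or genome build are given in the sources used here. Symbols came from the platform annotation, which gave 20380 probe sets 1 symbol, 691 several and 1555 none. The fits did not use the 64 controls. Of the 20380, 20351 matched the current gene table, and 0 symbols were replaced.

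Each comparison was fitted on all 20380 probe sets in limma 3.58.1 (R 4.3.3, lmFit and eBayes), two-sided, with Benjamini-Hochberg adjustment over all of them. The estradiol, pregnancy and source comparisons used their 6 arrays, and the difference of changes all 12. Counts over genes use each gene's representative probe set. Related genes were named by smallest p, at most 3 called per list, and some others after their values were seen. The members and lists were chosen with earlier results of these data known. The code was tested on simulated data. Alternatives were other normalizations, a filter on dim probe sets, 1 row per gene, a pseudocount of 16, another prior, 1 fit of 12 arrays and each array left out. Python 3.11.15 (pandas 2.3.3, matplotlib 3.10.9) drew the figures. For arrays, their number limits the precision.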

Additional observations from a re-analysis of the deposited data

How the results depend on the processing

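With estradiol 9 of 9 enzymes fell, and 8 with arrays shifted to a common median; without 1 array the count was 7 to 9. The genes lost were Hmgcs1 (common median, and without any array but estradiol replicate 2; adjusted p = 0.082 to 0.148) and Idi1 (without unstimulated replicate 1, 2 or 3; 0.052 to 0.055). Probe sets called without 1 array numbered 12 to 18. Averaging all probe sets of a gene, the change was -0.42 for Hmgcs1, -0.41 for Fdft1 and -0.23 for Fdps, the means of Fdft1 and Fdps including dim probe sets. In pregnancy 0 enzymes were called under any alternative run, the difference of changes gave 6 to 9, and the source comparison gave 9 in each. No paired analysis was possible because the labels give no replicate numbers shared between groups. The counts of neighbouring genes without estradiol replicate 2 or pregnant replicate 2 were added after seeing the data. Without estradiol replicate 2 they were 8 between lanosterol and cholesterol, 6 for fatty acids and 3 for LXR. The share of all genes called in these alternative fits is not given here. Their counts are therefore not compared with those of the main fits.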
